A study of Homo sapiens with 24 samples.

Results

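CHAC1 and 9 other genes of the integrated stress response were followed after silencing of FOXP1 in diffuse large B-cell lymphoma (DLBCL) lines. The members were the 10 genes whose name on the array is CHAC1, ATF4, DDIT3, ATF3, CEBPB, TRIB3, ASNS, PSAT1, SESN2 or DDIT4, out of 30142 genes in all, and 15 of the 41000 probes carry these names. CHAC1 was chosen for its ratios on silencing, so its ratios are given as a description with no test. The other 9 genes were tested, and they too were chosen with earlier results of these data known. Their p-values and counts are therefore not those of an independent choice. Dual-colour arrays compared RNA of siFOXP1-treated cells, labelled with Cy3, with that of cells given the non-targeting siCtrl, labelled with Cy5. The GCB-DLBCL (germinal centre B-cell-like) lines were DB and K422, and the ABC-DLBCL (activated B-cell-like) lines were HBL-1 and OCI-Ly3. Every line was nucleofected with 1 µM of siRNA for 48 h, with each of 2 FOXP1 siRNAs (siFOXP1 #1 is siFOXP1_308 and siFOXP1 #2 is siFOXP1_309) in 3 replicates, which gave 6 arrays per line and 24 in all. The dyes were never swapped, so a dye effect and silencing cannot be told apart within a line, and each subtype stands on 2 established lines.

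FOXP1 itself was lower on all 24 arrays, and its mean log2(siFOXP1/siCtrl) ratio lay between -2.0 ± 0.79 (SD, n = 6) in DB and -1.34 ± 0.47 (SD, n = 6) in K422. All 5 B-cell markers were well above background on every control channel of every line. Of 4 germinal centre markers, MME (CD10) was well above background on all control channels of DB and K422 and on none of HBL-1 or OCI-Ly3, while BCL6 and LMO2 were on all of them in every line, and LMO2 was highest in OCI-Ly3. Of 4 activated B-cell markers, IRF4 and CCND2 were well above background in HBL-1 and OCI-Ly3 alone, and PIM1 and BATF in every line. Of 4 markers of other cells, between 0 and 2 per line were well above background on all 6 control channels, among them EPCAM in HBL-1. The share of probes that stood well above background, in either channel, lay between 57.3% and 64.5% per array.

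The integrated stress response is the pathway by which cells answer a shortage of amino acids, misfolded protein in the endoplasmic reticulum (ER), haem shortage or viral RNA. Kinases phosphorylate the translation factor eIF2alpha, general protein synthesis drops, and the mRNA of the transcription factor ATF4 is translated more. ATF4 and the factors it induces, among them DDIT3 (CHOP) and ATF3, then switch on genes for amino acid synthesis and transport, redox control and, when stress lasts, cell death. CHAC1 is a target of this cascade and encodes an enzyme that degrades glutathione.

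ATF4 and its partners of the C/EBP family bind composite elements that share the letters TGATGNAA, and 3 of the 10 members held these letters on either strand in the RefSeq promoter windows, which run from 250 bases before a gene's start to 50 after it (GRCh38.p14). All 10 members matched the promoter table, with 17 windows between them, and 3 of the 17 had a match. Among all 35116 promoters of the same length, 3.62% had one. The 3 windows with a match are shown, those of CHAC1, of the classical ATF4 target ASNS and of the factor ATF3, with the match in capitals.
CHAC1, chr15:40953221-40953520, plus strand: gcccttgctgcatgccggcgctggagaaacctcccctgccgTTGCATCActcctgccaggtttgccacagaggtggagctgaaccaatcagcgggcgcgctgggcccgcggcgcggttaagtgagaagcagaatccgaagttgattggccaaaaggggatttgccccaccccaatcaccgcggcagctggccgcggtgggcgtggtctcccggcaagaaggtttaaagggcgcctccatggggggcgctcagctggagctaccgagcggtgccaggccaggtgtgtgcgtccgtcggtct
ASNS, chr7:97872359-97872658, minus strand: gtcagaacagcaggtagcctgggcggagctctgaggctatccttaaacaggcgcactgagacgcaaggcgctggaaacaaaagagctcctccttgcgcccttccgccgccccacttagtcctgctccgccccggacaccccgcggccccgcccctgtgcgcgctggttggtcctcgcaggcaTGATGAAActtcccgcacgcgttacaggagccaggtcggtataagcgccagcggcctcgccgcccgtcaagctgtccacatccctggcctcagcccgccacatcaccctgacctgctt
ATF3, chr1:212565157-212565456, plus strand: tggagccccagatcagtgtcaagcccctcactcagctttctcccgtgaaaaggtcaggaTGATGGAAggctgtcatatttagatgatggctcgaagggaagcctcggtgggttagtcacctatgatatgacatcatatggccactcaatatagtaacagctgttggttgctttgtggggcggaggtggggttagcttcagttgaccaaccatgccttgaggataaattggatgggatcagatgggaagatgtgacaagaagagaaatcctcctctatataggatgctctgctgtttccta
The match in the CHAC1 window reads TTGCATCA, the reverse strand form, and starts at position -209 from the gene's start. In ASNS it reads TGATGAAA at position -68, and in ATF3 TGATGGAA at position -191. The cAMP response palindrome TGACGTCA was in 0 of the 17 windows of members, against 1.85% of all promoters, and TGTTTAC, the core letters of forkhead factors such as FOXP1, was likewise in 0 of the 17, against 3.42%. A match describes letters and not a bound site, and the arrays hold no binding data.

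The probe that stood for each gene was the brightest one, and for all 10 members both of its channels stood well above background, and neither was saturated, on any of the 24 arrays. In the hg18 coordinates of the array design, the CHAC1 probe lies at chr15:39035814-39035873, that of ATF4 at chr22:38248523-38248582, that of ASNS at chr7:97319397-97319456 and that of PSAT1 at chr9:80134598-80134657. CEBPB was measured by 10 spots of 1 probe and the other members by 1 spot per probe.

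In DB, the 10 genes moved as a block in 1 replicate. The CHAC1 log2 ratio was -3.63 with siFOXP1 #1 and -1.87 with siFOXP1 #2 in replicate 2, and between 0.04 and 0.55 on the other 4 arrays. Both arrays of replicate 2 were therefore low, and the others were close to 0 or slightly above it.

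The transcription factors of the pathway showed the same split in DB. ATF3, an immediate stress-induced factor, was at -5.43 and -3.13 in replicate 2, against -0.63 to 1.29 on the other 4 arrays. DDIT3, the death-associated factor CHOP, was at -3.08 and -2.14, against -0.45 to 0.63. CEBPB, a C/EBP factor that pairs with ATF4, was at -2.96 and -1.76, against -0.24 to 1.39. ATF4, whose control is mainly translational, moved least among the factors, with -1.32 and -0.67 against -0.11 to 0.36. In each of these genes both replicate 2 arrays lay below every other DB array.

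The effector genes followed. ASNS, which makes asparagine, had DB replicate 2 log2 ratios of -1.90 and -1.07, and PSAT1, of serine synthesis, had -2.05 and -1.27. SESN2 and DDIT4, which both restrain mTORC1 signalling, had -2.34 and -1.71, and -2.34 and -1.96, respectively. TRIB3, a pseudokinase that feeds back on the pathway, had -1.59 and -1.36, while replicate 3 was on the other side of 0 with 1.66 and 0.56. The log2 ratios of both replicate 2 arrays were below the other 4 DB arrays for 10 of 10 members, a pattern that 6.91% of all genes showed.

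The mean ratio of DB hides this split. None of the 9 tested members was called in DB, where a call needs a limma adjusted p under 0.05 and a change of at least 0.5 on the log2 scale, against 0.829% of all genes called lower there, and 4 of the 9 had an unadjusted p under 0.05. The adjusted p ranged from 0.116 for DDIT3 to 0.75 for TRIB3. The methods' t-test likewise called 0 of the 9, and 0.0944% of all genes lower. Without DB replicate 3, 8 of the 9 were called lower, against 1.71% of all genes, and without DB replicate 2, 0 were called and 8 of the 9 means lay above 0. Replicates 1 and 2 of DB were hybridised on the same slide, and replicate 1 did not share the low values. Replicate 3 was on another slide, that of OCI-Ly3 replicate 1. FOXP1 in DB was at -0.95, -1.61 and -1.34 with siFOXP1 #1 and at -2.71, -2.69 and -2.69 with siFOXP1 #2, in the order of replicates 1, 2 and 3, so that replicate 2 had the lowest ratio with the first siRNA and an intermediate one with the other. The part of the slide and of the FOXP1 level in the low values was not tested.

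**Figure D1:**
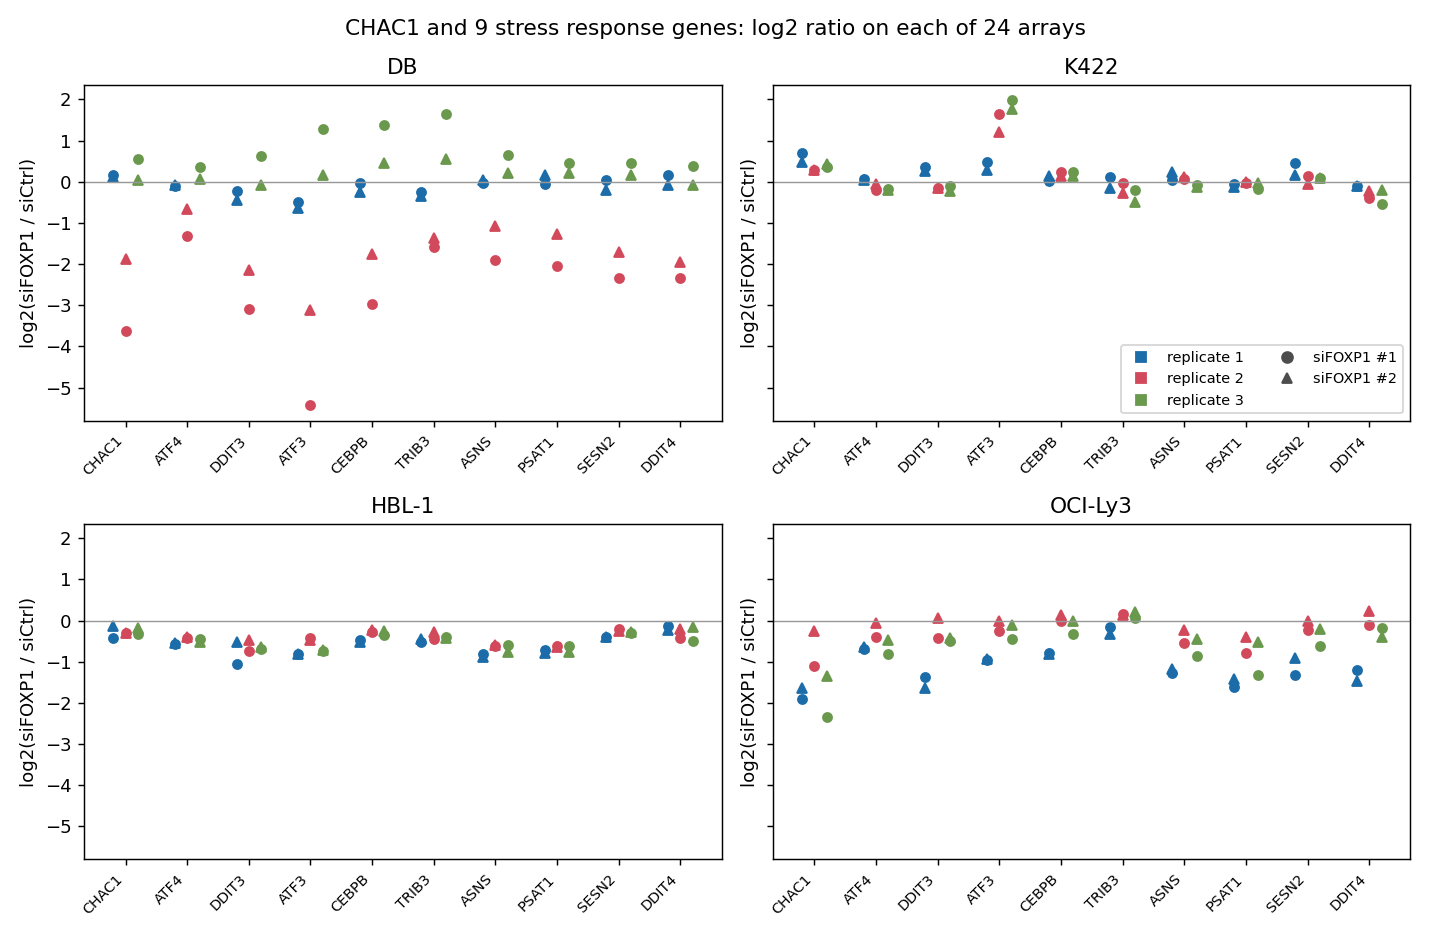
Log2(siFOXP1/siCtrl) of CHAC1 and the 9 other members (x axis) on each of the 24 arrays, 1 panel per line, with the colour giving the replicate number and the symbol the siRNA. In DB both replicate 2 arrays lie below the others for every member, whereas the HBL-1 arrays sit close together, with a CHAC1 range of 0.29 on the log2 scale against 4.18 in DB.

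In OCI-Ly3, CHAC1 was lower on all 6 arrays. Its log2 ratios were -1.91, -1.10 and -2.34 with siFOXP1 #1 and -1.63, -0.25 and -1.34 with siFOXP1 #2, in the order of replicates 1, 2 and 3, a mean of -1.43 ± 0.72 (SD, n = 6). The smallest change was in replicate 2 with either siRNA. Replicate 1 was hybridised on a different slide from replicates 2 and 3.

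Of the 9 tested members, 3 were called lower in OCI-Ly3, against 1.62% of all genes. PSAT1 fell by 1.01 on the log2 scale (SE 0.24, adjusted p = 0.00623), ASNS fell by 0.76 (SE 0.23, adjusted p = 0.0272) and ATF4 fell by 0.51 (SE 0.15, adjusted p = 0.0191). PSAT1 ranged from -1.60 to -0.41 over the 6 arrays, ASNS from -1.28 to -0.23 and ATF4 from -0.81 to -0.07, so all 3 were lower on every array. SESN2 and ATF3 were also below 0 on 6 of 6 arrays without passing the test, with means of -0.55 ± 0.50 and -0.45 ± 0.40 (SD, n = 6). TRIB3 had a mean of 0.01 ± 0.21 (SD, n = 6), with 4 of its 6 arrays above 0. Replicate 1 gave the lowest pair of arrays for 8 of the 10 members, the exceptions being CHAC1 and ATF4, and 6.98% of all genes had their OCI-Ly3 replicate 1 pair below the other 4 arrays. Without that replicate 0 of the 9 were called, PSAT1 being then at -0.76 (adjusted p = 0.108), without replicate 3 the count was 1, and without DB replicate 2, which adds to the spread shared by all lines, it was 6.

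In HBL-1 the changes were small and even. CHAC1 was at -0.44, -0.31 and -0.32 with siFOXP1 #1 and at -0.14, -0.31 and -0.17 with siFOXP1 #2. All 10 members were below 0 on all 6 arrays of this line, a pattern whose share among all genes is not given. ASNS fell by 0.71 on the log2 scale (SE 0.23, adjusted p = 0.0244) and PSAT1 fell by 0.69 (SE 0.24, adjusted p = 0.0352), so 2 of the 9 tested members were called lower, against 4.17% of all genes. The 6 ASNS values ran from -0.88 to -0.59 and the 6 PSAT1 values from -0.79 to -0.61. ATF4, at -0.48 ± 0.07 (SD, n = 6, adjusted p = 0.0159), lay under the size limit of 0.5. All lines share 1 spread in the fit, and HBL-1 fitted alone gave 4 calls, against 3.76% of all genes called lower, as did the fit without DB replicate 2. Leaving out any HBL-1 replicate gave 0 calls, as did the slide as a block and either siRNA on its own, and leaving out any K422 replicate or OCI-Ly3 replicate 3 gave 1.

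Probes of the same gene did not all show the HBL-1 change. The second ATF4 probe averaged -0.01 in HBL-1 where the first averaged -0.48, the second TRIB3 probe averaged 0.04 against -0.42, and the second CEBPB probe averaged 0.25 against -0.35. The second ASNS probe, well above background on 12 of 24 control channels, averaged 0.60 against -0.71. Only the second ATF3 probe was close to the first there, with -0.68 against -0.67. The second ASNS probe also lay on the other side of 0 in DB, with 0.55 against -0.35, and in OCI-Ly3, where ASNS was called, with 0.19 against -0.76. Its hg18 position is chr7:97376072-97376131, apart from the first probe at chr7:97319397-97319456. Whether both read the same transcript was not tested. The second ATF3 probe averaged -1.10 against -1.37 in DB and -0.32 against -0.45 in OCI-Ly3. The second TRIB3 probe averaged -0.11 against 0.01 in OCI-Ly3. CHAC1, DDIT3, PSAT1, SESN2 and DDIT4 have 1 probe each.

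K422 stood on the other side of 0 for CHAC1. Its log2 ratios were 0.69, 0.30 and 0.35 with siFOXP1 #1 and 0.49, 0.29 and 0.44 with siFOXP1 #2, all 6 above 0. ATF3 was also above 0 on 6 of 6 arrays, with 0.48, 1.65 and 1.98 for siFOXP1 #1 and 0.30, 1.20 and 1.78 for siFOXP1 #2, and CEBPB was above 0 on 6 of 6 by at most 0.24. The mean of ATF3 was 1.23 ± 0.70 (SD, n = 6), its SE in the fit was 0.57, and its adjusted p was 0.155. None of the 9 members was called in K422, against 2.34% of all genes called higher and 2.1% called lower, and 1 of the 9, ATF3, had an unadjusted p under 0.05. Without DB replicate 2 ATF3 was called higher, with the same mean and an adjusted p of 0.00164, against 2.33% of all genes. Replicate 1 of K422 gave the smallest ATF3 ratios and the highest ATF3 control level, 0.39 against -2.36 and -2.73 in replicates 2 and 3 on the log2 scale relative to the 75th percentile of the array.

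The study set ABC-DLBCL against GCB-DLBCL, so the responses of the lines were compared directly. Over the 4 lines, 0 of 9 members differed between the subtypes, against 2.26% of all genes, and 3 had an unadjusted p under 0.05. The largest differences were -0.60 (SE 0.24, adjusted p = 0.148) for PSAT1 and -0.58 (SE 0.23, adjusted p = 0.145) for ASNS, ABC minus GCB. Within the scans, OCI-Ly3 differed from DB for 0 of 9 (1.43% of all genes, 0 with an unadjusted p under 0.05) and HBL-1 from K422 for 0 of 9 (4.34% of all genes, 2 with an unadjusted p under 0.05). Without DB replicate 2, 6 of 9 were lower in ABC than in GCB lines, against 0.939% of all genes, with ASNS at -0.86, PSAT1 at -0.91 and ATF3 at -1.22, and 3 of 9 in each comparison within a scan, against 0.63% of all genes lower in OCI-Ly3 than in DB and 2.12% lower in HBL-1 than in K422.

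Whether the other genes followed CHAC1 from array to array was tested by the slope of each log2 ratio on that of CHAC1 within the 4 lines. All 9 members had a positive slope with an adjusted p under 0.05 by limma, against 1.86% of all genes with a positive slope called. ATF4 had the smallest slope and the smallest error, 0.36 per log2 unit of CHAC1 (SE 0.03, adjusted p = 6.91e-06). With normexp and median centring ATF4 and TRIB3 no longer passed, with an adjusted p of 0.0577 and 0.057. ATF3 had the steepest, 1.31 (SE 0.17, adjusted p = 0.000494), and TRIB3 had the highest adjusted p, 0.00575, at a slope of 0.57 (SE 0.10). The other slopes ran from 0.56 for ASNS to 0.87 for CEBPB. The median slope of all genes was -0.00069.

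These 9 calls rested on DB replicate 2. Without its 2 arrays all 9 slopes were still above 0, from 0.32 for ATF3 to 0.74 for DDIT3, but 0 of the 9 were called and 7 of all genes were, 0.0232%, and 6 of the 9 had an unadjusted p under 0.05. The closest was ATF4, whose slope of 0.41 (SE 0.07) had an adjusted p of 0.101. Averaging the 2 arrays of each replicate number, which treats the numbers as pairs, left 6 of 9 calls, those of ATF4, ASNS, PSAT1, DDIT3, SESN2 and DDIT4, against 0.186% of all genes. Without DB altogether 0 of the 9 were called, against 0.0431% of all genes.

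Fitted by line, the slopes were called for 9 of 9 members in DB (1.8% of all genes). They were called for 0 of 9 in K422, HBL-1 and OCI-Ly3, against 0.229%, 0.00995% and 0.0133% of all genes, with 1, 0 and 6 of the 9 at an unadjusted p under 0.05. With the pairs averaged, or without replicate 2, 0 of 9 were called in DB. OCI-Ly3 had a positive slope for all 9, from 0.17 for TRIB3 to 0.69 for DDIT4, and ATF4, at 0.38 (SE 0.08), was close to its DB slope of 0.36. Without OCI-Ly3 replicate 3, 5 of 9 were called there, against 0.713% of all genes. K422 had positive slopes for 6 of 9, with ATF3 at -3.32 (SE 1.38, adjusted p = 0.458), and HBL-1 for 2 of 9, over CHAC1 ranges of only 0.40 and 0.29.

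Within OCI-Ly3, Pearson's r with CHAC1 over the 6 arrays was 0.99 for ATF4 and between 0.41 and 0.81 for the other 8 members, and after leaving out the 2 arrays farthest from the CHAC1 median it was between 0.75 and 0.98. In DB r was between 0.82 and 0.99, and without the 2 farthest arrays, those of replicate 2, between 0.68 and 0.94. In K422 it ran from -0.86 to 0.91 and in HBL-1 from -0.60 to 0.72. Without the 2 farthest arrays it ran from -0.96 to 0.83 in K422 and from -0.66 to 0.98 in HBL-1. These values describe 6 arrays from 3 experiments, in which 2 arrays share a replicate number, and carry no p.

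**Figure D2:**
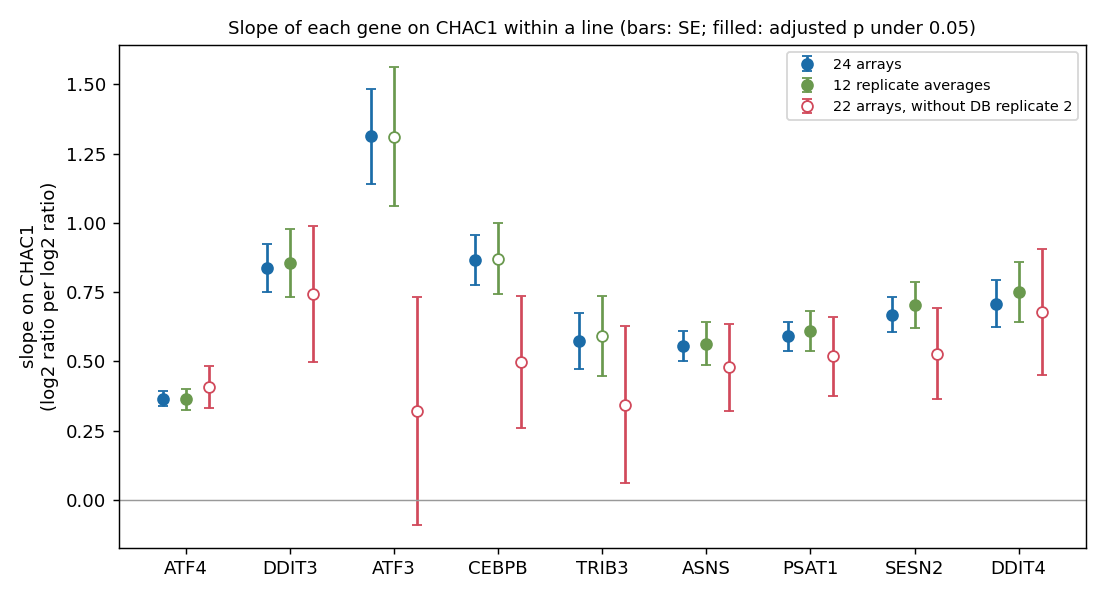
Slope of the log2 ratio of each member on that of CHAC1 within a line (y axis, log2 ratio per log2 ratio) over all 24 arrays, over 12 averages of arrays with the same replicate number, and over 22 arrays without DB replicate 2. Bars are SE and filled points have an adjusted p under 0.05: all slopes stay above 0, and the filled points disappear without DB replicate 2.

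The signals of the separate channels showed where the spread lay. A channel's level is given on the log2 scale relative to the 75th percentile of that channel on the array, as the mean of the 2 arrays of a replicate number. The control level of CHAC1 in DB was 2.95, 3.13 and 3.02 in replicates 1, 2 and 3, while the level in silenced cells was 3.09, 0.39 and 3.30. The low CHAC1 ratio of DB replicate 2 thus came with a low level in the silenced cells and a steady one in the controls. DDIT4 was alike, with control levels of 4.01, 4.04 and 4.03 and silenced levels of 4.05, 1.90 and 4.17. Not all DB controls were as steady, and their range over the 3 replicates ran from 0.02 for DDIT4 to 1.31 for TRIB3 and 1.47 for ATF3. In the silenced channel, both replicate 2 arrays were below the other 4 DB arrays for 10 of 10 members, against 12.7% of all genes, and in the control channel for 1 of 10, SESN2, against 9.67%.

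In OCI-Ly3 the controls varied more than the silenced cells in these genes. CHAC1 in the control cells was at 3.09, 0.34 and 1.53 in replicates 1, 2 and 3, and in the silenced cells at 1.33, -0.33 and -0.31. All 10 members had their highest control level in replicate 1, their next in replicate 3 and their lowest in replicate 2, an order that 14.7% of all genes had. The arrays of replicate 1 were on a different slide from those of replicates 2 and 3. Slide and replicate cannot be told apart there. In DDIT4 the 3 control levels were 2.82, 0.90 and 1.68, and the silenced levels 1.48, 0.96 and 1.39. The range of the 3 control levels was larger than that of the 3 silenced levels for all 10 members in OCI-Ly3, and smaller for all 10 in DB. The share of all genes with these 2 patterns is not given, so they cannot be called particular to the members.

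The control levels of the 2 arrays that share a line and a replicate number were nearly the same, with a median absolute difference of 0.04 on the log2 scale over 120 pairs of values of the members and a maximum of 0.29. The ratios of such a pair may therefore share much of the control signal, and a change in the control level would move both. The labels do not say whether the same control RNA was used. In bulk RNA, fewer cells in a given state and less RNA per cell cannot be told apart.

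Within each channel, the level of each member was also fitted on the CHAC1 level of that channel, a choice made after the data were seen. These slopes used averages of arrays with the same replicate number, within a line. They are not slopes on the CHAC1 ratio over single arrays. In the control channel the slopes of 9 of 9 members were above 0 and 0 were called, against 0.0133% of all genes, with 7 of 9 at an unadjusted p under 0.05. Without OCI-Ly3 replicate 1, 8 of 9 control slopes were above 0, and 0 of 9 had an unadjusted p under 0.05. In the silenced channel 9 of 9 were above 0 and 2 were called, DDIT3 and SESN2, against 0.0265% of all genes. That count was 8 without OCI-Ly3 replicate 1, against 2.62% of all genes, and 0 without DB replicate 2.

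**Figure D3:**
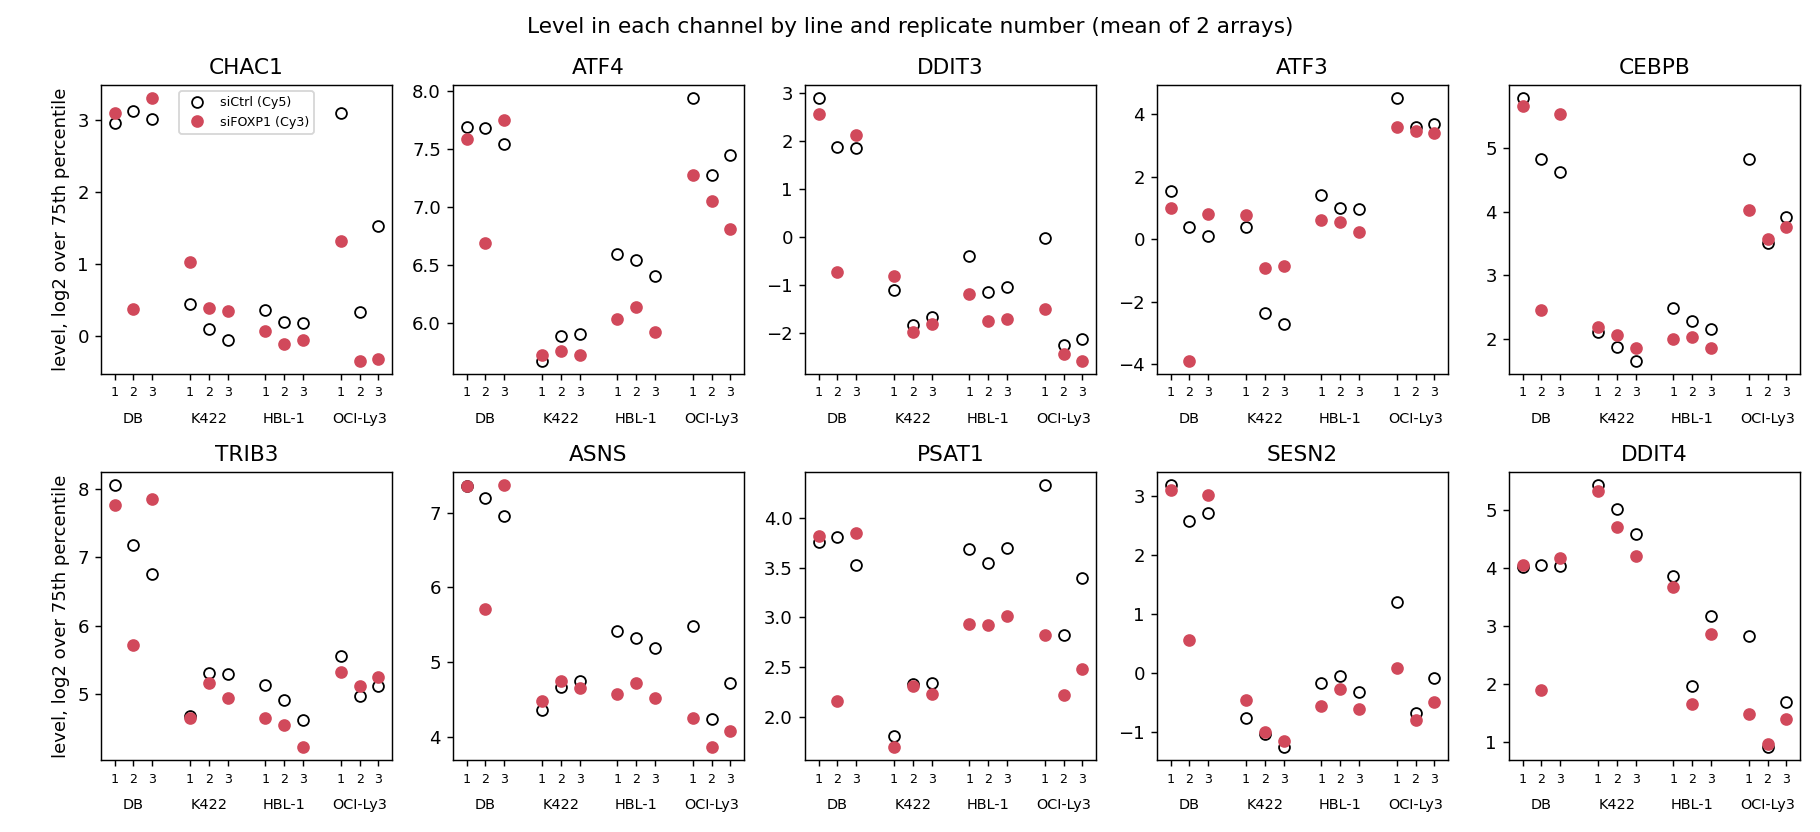
Level of each member in siCtrl (open) and siFOXP1 (filled) cells, on the log2 scale relative to the 75th percentile of the channel, by line and replicate number (x axis), as the mean of 2 arrays. In DB the filled point is lowest in replicate 2 for every member, as for CHAC1 at 0.39 against a control at 3.13. The open points spread most in OCI-Ly3 for 8 of 10 members, ATF3 (K422) and TRIB3 (DB) being the exceptions. For that spread the share of all genes is not given.

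The control cells of some lines differed in the level of several of these genes. Averaged over the 3 replicates, the control level of CHAC1 was 3.03 ± 0.09 in DB, 1.65 ± 1.38 in OCI-Ly3, 0.25 ± 0.10 in HBL-1 and 0.17 ± 0.26 in K422 (SD, n = 3). HBL-1 and K422, neighbours in that order, did not differ beyond their spread. The OCI-Ly3 replicates ran from 0.34, a little above the HBL-1 mean, to 3.09, a little above the DB mean. Levels were tested between lines of the same scan, and a call needed a log2 difference of 1 or more with an adjusted p under 0.05.

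DB had the higher control level for most members. DDIT3 was lower in OCI-Ly3 than in DB by a difference of -3.68 (SE 0.54, adjusted p = 0.000171), SESN2 by -2.68 (SE 0.38, adjusted p = 0.000143), ASNS by -2.35 (SE 0.26, adjusted p = 2.11e-05), DDIT4 by -2.23 and TRIB3 by -2.12, and ATF3 was higher by 3.26 (SE 0.70, adjusted p = 0.00261). This made 6 of 9 members called, against 25.8% of all genes. ATF4 and PSAT1 differed by -0.08 and -0.18, within their SE of 0.16 and 0.31. HBL-1 was higher than K422 for ATF3, by 2.70, and PSAT1, by 1.49, and lower for DDIT4, by -2.01. This made 3 of 9, near the share of 25.8% of all genes, so the members did not stand out between HBL-1 and K422. ASNS reversed there, to -2.0, when its 2 probes were averaged.

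Other genes moved with CHAC1 as closely as the members did. Over the 24 arrays, each value was taken as its deviation from the mean of its line and siRNA, and Pearson's r with CHAC1 was computed for 15319 genes that were well above background in both channels on at least 18 arrays. The members had r from 0.81 for TRIB3 to 0.97 for ATF4, and their ranks among the genes ran from 1 for ATF4 to 140 for TRIB3, against a median r of -0.02. The 10 other genes most like CHAC1 were GARS (0.95), SLC7A5 (0.95), TIMM44, DNASE2, VEGFA, ATF4C, CEBPE, CARS and 2 transcripts without a symbol, A_24_P204414 and THC2568453. GARS and CARS charge tRNA with glycine and cysteine, and SLC7A5 carries large neutral amino acids. The r of ATF4 was 0.84 without DB replicate 2, that of PSAT1 0.70, that of CEBPB 0.49, that of TRIB3 0.31 and that of ATF3 0.20. For the 10 other genes it then lay between 0.58 for CEBPE and 0.86 for ATF4C. Same-numbered arrays may share control RNA, which the labels do not state, so these values carry no p.

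Some genes of the ER chaperone arm ran the other way. DNAJB11, an ER co-chaperone that was in no list and was named after its value was seen, had the most negative r of all (-0.97, and -0.82 without DB replicate 2), and HSPA5, the main ER chaperone BiP, had -0.91, and -0.45 without DB replicate 2. HSPA5 log2 ratios were 1.19 and 0.60 in DB replicate 2 and between -0.48 and -0.14 on the other 4 DB arrays. Both replicate 2 arrays thus lay above the rest for HSPA5, where all 10 members lay below. This held for 5 of 11 genes of the chaperone list, against 6.98% of all genes. Of the same 11 genes, 1 had both replicate 2 arrays below the other 4, as the members did, against 6.91% of all genes.

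**Figure D4:**
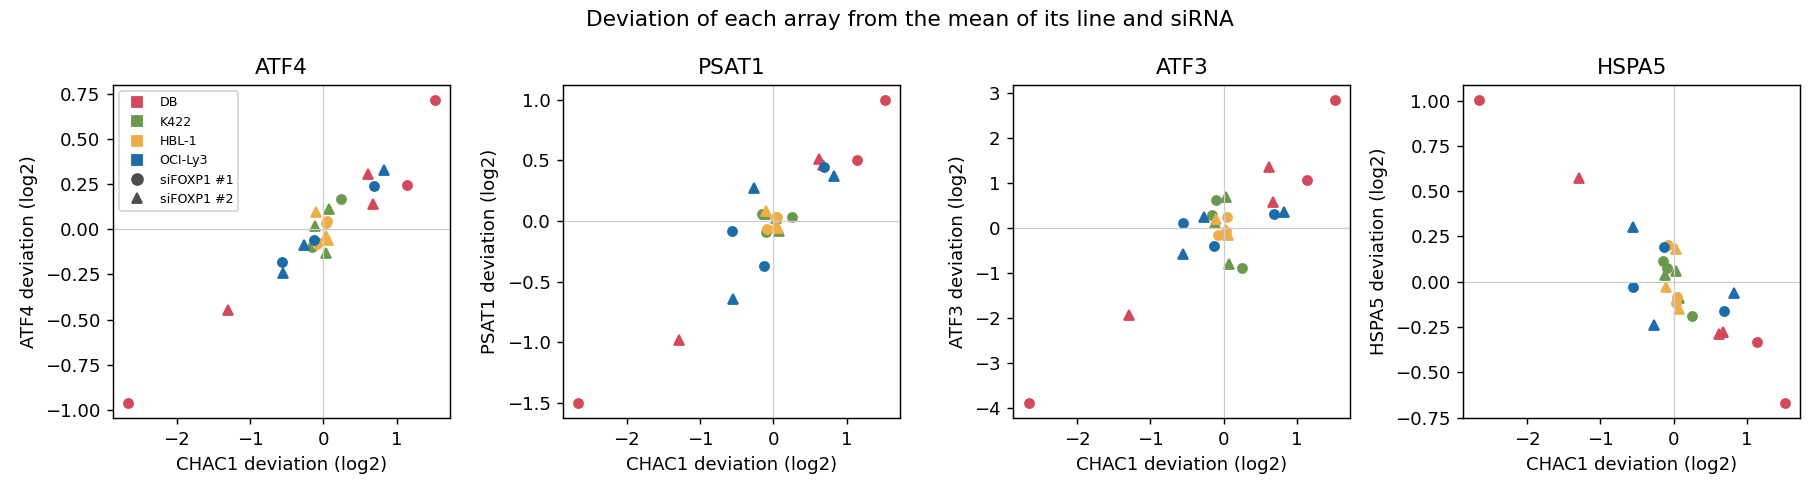
Deviation of each array's log2 ratio from the mean of its line and siRNA for CHAC1 (x axis, log2) and for ATF4, PSAT1, ATF3 and HSPA5 (y axes, log2), with the colour giving the line. ATF4 follows CHAC1 in both DB and OCI-Ly3, while HSPA5 runs the other way, with r of 0.97 and -0.91 over the 24 arrays.

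The wider response was followed through 7 lists of genes, also chosen with earlier results of these data known. In amino acid supply, 12 of 13 aminoacyl-tRNA synthetases and export factors, 7 of 9 amino acid transporters and 8 of 11 genes of serine, amino acid and folate synthesis had a positive slope called over the 24 arrays, against 1.86% of all genes. CARS had 0.51 (SE 0.05), GARS 0.40 (SE 0.03), SLC7A5 0.32 (SE 0.03) and PHGDH, the first enzyme of serine synthesis, 0.38 (SE 0.04) per log2 unit of CHAC1. The synthetase list had a median slope of 0.28, the transporters 0.33 and the synthesis genes 0.36. Of 12 stress factors and feedback genes 5 were called, ATF5, CEBPG, HERPUD1, JDP2 and VEGFA.

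The lists that do not serve amino acid supply looked different. Among 11 ER chaperones and other genes of the unfolded protein response, HSPA5 (slope -0.37, SE 0.04), HSP90B1 (-0.28, SE 0.04), CALR, PDIA4 and SDF2L1 had a negative slope called, against 1.22% of all genes, and XBP1, the factor of the IRE1 branch, a positive one (0.29, SE 0.04). Of the genes of glutathione metabolism, 0 of 8 were called. EIF2S2 was the only call among 8 eIF2alpha kinases and eIF2 subunits, with a slope of 0.25 (SE 0.03). As for the members, 0 genes of these 7 lists were called without DB replicate 2, where only 0.0232% of all genes were. With the pairs averaged 5 of 13, 5 of 9, 2 of 11 and 2 of 12 of the first 4 lists were called, and 0 of the others. The share of all genes with a positive slope called was then 0.186%.

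**Figure D5:**
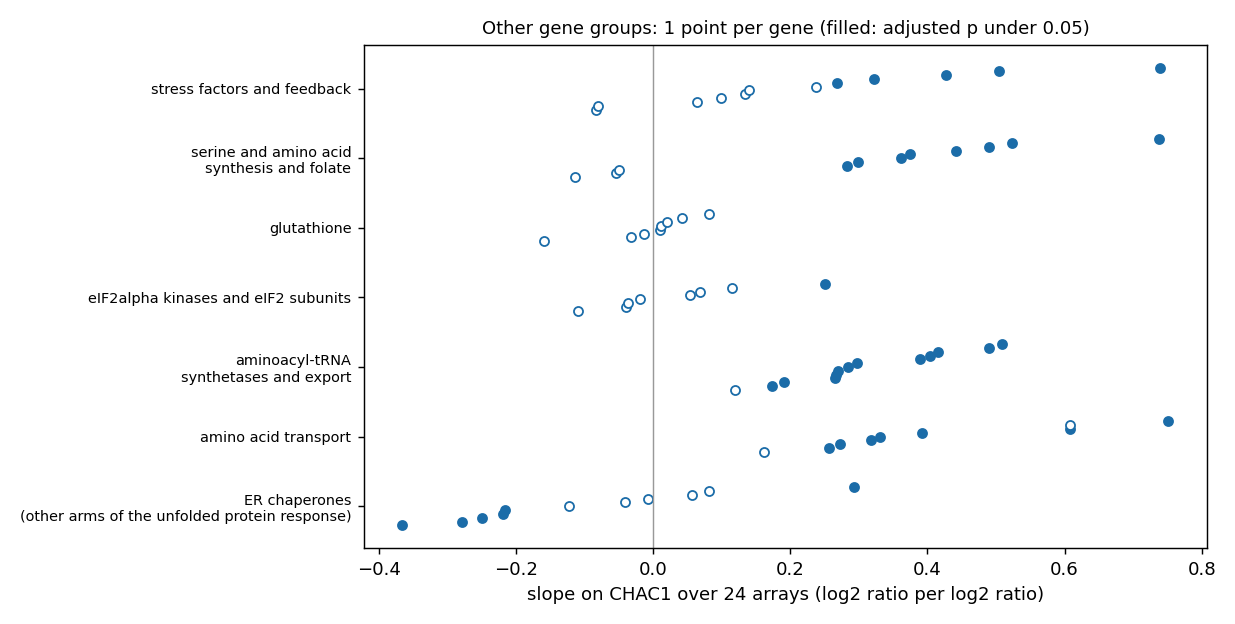
Slope on CHAC1 over 24 arrays (x axis, log2 ratio per log2 ratio) of each gene of 7 other lists, with 1 point per gene and filled points at an adjusted p under 0.05. Synthetases, transporters and synthesis genes lie mostly to the right of 0, the glutathione genes sit around 0, and 5 ER chaperone genes are called on the left.

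In the mean response of each line, some genes of the same lists were called. In OCI-Ly3, 3 of 9 transporters, 2 of 12 stress factors and at most 1 gene of each other list were lower. The share of all genes was 1.62%. In HBL-1, 2 of 13 synthetases and export factors, 2 of 11 synthesis genes, 2 of 12 stress factors and at most 1 gene of each other list were lower. The share there was 4.17%. In K422, 2.1% of all genes were lower and 2.34% higher, and in DB 0.829% were lower. In OCI-Ly3, SLC7A11, the cystine transporter, fell by 1.21 on the log2 scale (SE 0.28, adjusted p = 0.00491), VLDLR fell by 1.17 (SE 0.22), VEGFA fell by 1.02 (SE 0.17), MTHFD2 of mitochondrial folate metabolism fell by 0.78 (SE 0.19), and SLC7A5, GARS, EIF2S2 and SLC7A1 fell by between 0.57 and 0.61. In HBL-1, MTHFD2 fell by 0.84 (SE 0.19), ALDH1L2 fell by 0.76 (SE 0.12), CHAC2, the second glutathione-degrading enzyme of the CHAC family, fell by 0.62 (SE 0.10, adjusted p = 0.000108), and VEGFA, GDF15, MARS, LARS and EIF2S2 fell by between 0.51 and 0.60. K422 had VEGFA lower, at -0.63 (SE 0.17), and DB had only EIF2S2 lower, at -0.51 (SE 0.11). EIF2AK3, the ER stress kinase PERK, rose in K422 by 1.08 (SE 0.08, adjusted p = 9.92e-08) and in HBL-1 by 0.53 (SE 0.08). None of the 11 ER chaperone genes was called in any line. With such small shares of all genes, that count says little. The median of the mean log2 ratios of the 9 tested members was -0.52 in DB, -0.52 in OCI-Ly3, -0.48 in HBL-1 and -0.00077 in K422. Over all genes, dim ones included, it was 0. The median of the 9 members depended on single replicates. That of the members was 0.11 in DB without DB replicate 2 and -0.27 in OCI-Ly3 without OCI-Ly3 replicate 1.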

How the data were processed

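RNA from FOXP1-silenced and control DLBCL lines was hybridised to 24 dual-colour Agilent arrays. The authors deposited Feature Extraction output, which holds an intensity for each channel and, as Cy5 over Cy3, a log10 ratio that the software had background-subtracted and normalized within the array. Per the file headers, version 10.5.1.1 was used for DB and OCI-Ly3 (scan 1) and version 10.7.3.1 for K422 and HBL-1 (scan 2). The deposited value table held log2 values and served as an alternative, with its direction taken from the scanner values.

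Log10 ratios were divided by log10 of 2 and changed in sign, which makes a value above 0 mean more RNA in silenced cells. Of 45015 spots, 1639 control spots and between 113 and 469 outlier spots per array were left out. The brightest probe stood for a gene, with gene names as the array design gives them. Shares and medians over all genes also count genes that were not well above background. Precision is limited by the number of arrays. Channel levels are log2 of the deposited processed intensity minus the 75th percentile of the array. Fits used limma 3.58.1 in R 4.3.3 (lmFit and eBayes, all 4 lines sharing 1 spread, Benjamini-Hochberg adjustment over all genes), with calls at an adjusted p under 0.05 and 0.5 on the log2 scale for ratios, 1 for levels and no size limit for slopes. Ratios were tested per line, between subtypes and between lines of a scan. In the main fit, slopes were fitted on the CHAC1 log2 ratio of single arrays within line and siRNA. With the pairs averaged they were fitted within line. Slopes of a channel's level were fitted on the CHAC1 level of that channel, with the pairs averaged. Control levels were averaged over arrays that share a replicate number. The fits were tested on simulated data of 29750 genes, where 98.5% of 200 genes with a known slope were recovered. Simulated noise was independent between arrays, and CHAC1 varied alike on all of them. The share recovered thus says nothing about slopes that rest on DB replicate 2.

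The methods describe independent experiments, and same-numbered arrays of a line deviated together, with a correlation of their log2 ratios over 12 pairs between 0.05 and 0.28 with all genes, or 0.16 and 0.63 with the 15320 bright ones, so the replicate number was used as a block in an alternative and pairs count as 1 experiment. P-values over single arrays treat the 2 siRNAs as separate samples.

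The 10 members and all gene lists were chosen with earlier results of these data known. Named genes are the members, the called genes of the other lists, FOXP1 and the 10 other genes with the highest correlation with CHAC1; DNAJB11 and the marker genes were named after their values were seen. Promoter sequences are from RefSeq (GRCh38.p14), and probe coordinates are hg18.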

Additional observations from a re-analysis of the deposited data

Results flagged for a closer look

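CHAC1 was higher on silencing on all 6 K422 arrays and lower on all 6 arrays of HBL-1 and of OCI-Ly3. The K422 mean exceeded that of HBL-1 by 0.71 and that of OCI-Ly3 by 1.86 on the log2 scale, and these differences were not tested. ATF3 showed the same opposition between K422 and OCI-Ly3, with a difference in means of 1.68 that was not tested. A search for single arrays far from the other 5 of their line, by Dixon's criterion, found 0 in 40 groups of 6 (10 members in 4 lines), where chance gives about 1 in 20 groups. DB replicate 2 has 2 low arrays, which such a search for 1 outlying value does not single out.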

How the results depend on the processing

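The count of the 9 tested members with a slope on CHAC1 was 9 over all arrays, from 0 to 9 with 1 replicate of a line left out, 0 without DB, 0 without both DB replicate 2 and OCI-Ly3 replicate 1, 6 under the replicate block (pairs averaged), and 7 with normexp and median centring, without ATF4 and TRIB3. In DB alone it was 9, from 0 to 9 with a replicate left out, 0 under the replicate block and 7 with normexp and median centring, where ATF4 had an adjusted p of 0.55 by limma. In OCI-Ly3 alone it was 0, from 0 to 5 with a replicate left out, and 1 with the mean over probes and with the 2 siRNAs sharing 1 mean per line. K422 and HBL-1 gave 0 under every alternative run. Members called lower on silencing ranged from 0 to 8 in DB (main 0), from 0 to 4 in HBL-1 (main 2) and from 0 to 6 in OCI-Ly3 (main 3) with a replicate left out, those called higher in K422 from 0 to 1 (main 0), and those lower in the ABC lines from 0 to 6 (main 0). In HBL-1 the count was 4 with normexp and median centring, 4 with each line fitted alone, 4 by the methods' t-test, 1 with the mean over probes, 0 with the slide as a block and 0 with either siRNA alone. In OCI-Ly3 it was 1 with the mean over probes and 0 with either siRNA alone, and in K422 it was 1 with normexp and loess. The replicate block changed no other call count. Control levels that differed between lines stayed at 6 to 7 and at 3 of the 9 with a replicate left out, and 1 gene reversed: ASNS between HBL-1 and K422, from 0.72 to -2.0 with the mean over probes. The cause was not tested. The probes used for the members were well above background on all 24 arrays.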
